A study of Mus musculus with 9 samples.

Results

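Cardiac sarcomere, Z-disc and stretch genes were followed in the tissue bordering a myocardial infarct (MI) of the mouse heart. The set held 38 genes, taken by gene symbol, out of 19505 genes with a symbol on the arrays. All 38 were measured, each by 1 row of the value table. By role they comprised 9 thick-filament genes, 2 genes of the M line, 8 of the thin filament, 10 of titin and the Z disc, 5 genes that respond to stretch, 3 genes of muscle ubiquitin ligases and the myoglobin gene Mb.

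A sarcomere is the contractile unit of striated muscle. Myosin thick filaments, crosslinked at the M line, slide along actin thin filaments that are anchored in the Z disc, and titin spans the distance from Z disc to M line as a spring. Proteins of the Z disc and the titin spring sense stretch, and under load the ventricle of rodents is known to draw on fetal isoforms such as the beta heavy chain of myosin and skeletal alpha-actin.

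Every animal was a female SCID mouse, a strain without functional T and B lymphocytes, aged 80 to 100 days, and every heart carried an infarct made by tying the LAD coronary artery. The groups differed in what was injected, namely saline, cardiomyocytes grown from iPSCs (iCM), or exosomes, small vesicles shed by cells, that were precipitated from such cardiomyocytes (iCM-Ex). The peri-infarct region (PIR) was dissected 4 weeks after infarction, without the infarct core and the remote myocardium, and its total RNA was hybridised to Clariom S arrays, with 3 biological replicates per group and 9 arrays in all. The species of the iPSCs is not given in the sources used here, and hearts without an infarct were not analysed here. The tissue is a mixture of cell types, so fewer cardiomyocytes and less RNA of a gene per cardiomyocyte cannot be told apart.

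Signals are on the log2 scale, where a difference of 1 is a factor of 2. The highest gene signal of an array was 19.86 to 19.93, and the median of the negative control probe sets was 4.76 to 5.56. Heart muscle in the tissue was borne out by Tnnt2, the cardiac troponin T gene, at 18.63 to 19.80 on the 9 arrays. The mean of 12 cardiomyocyte markers outside the set, Tnnt2 among them, was 14.9 to 15.6 on saline, 13.7 to 15.4 on iCM and 14.7 to 15.0 on iCM-Ex arrays. Of these markers Nkx2-5 read 4.78 to 5.89, near the negative controls, and Gata4 and Tbx20 read 7.94 and 7.98 on iCM replicate 2. Such genes mark heart muscle and not its peri-infarct region. Control separation, the median positive minus the median negative control of an array, was 3.26 to 3.56 for saline, 2.47 to 3.21 for iCM and 3.63 to 4.01 for iCM-Ex, so that this measure of array quality moved with the groups. Markers of other tissues were high on 3 arrays. A list of 10 lung genes averaged 12.2 on iCM replicate 1, 8.88 on iCM-Ex replicate 3 and 4.27 to 4.80 on the saline arrays. On iCM replicate 2 a list of 20 skeletal muscle genes averaged 10.8, with 5.19 to 6.39 on the other 8 arrays, and 7 fat genes averaged 8.77, with 4.23 to 5.61 elsewhere.

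Against saline, the 38 genes of the set took no common direction in iCM hearts. Of the 38 genes 22 lay above and 16 below their saline mean, as did 55.5% and 44.5% of all genes, with a median difference of 0.34 against 0.08 over all genes. Synpo2l fell and no gene of the set rose by limma with Benjamini-Hochberg adjustment over all genes, where 2.33% of all genes fell, 1.34% rose and 3.67% were called in either direction. At an unadjusted p of 0.05, 1 gene was higher and 5 were lower, against 10.5% and 9.97% of all genes. The arrays did not overlap for 1 higher gene (Tcap) and 3 lower genes (Synpo2l, Actc1 and Ankrd23), against 13.8% and 10.2% of all genes. The median took its sign from single arrays, being −0.063 without saline replicate 3 and −0.029 without iCM replicate 3.

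Against saline, more of the genes lay lower than higher in iCM-Ex hearts, and 0 passed the test. Here 22 of the 38 genes lay below their saline mean, as did 46.5% of all genes, with a median of −0.62 against 0.04 over all genes. The median was −0.28 without saline replicate 1 and −0.33 without iCM-Ex replicate 3, the array with lung markers. By limma 0 genes of the set passed the adjusted threshold, where 0.349% of all genes did. At an unadjusted p of 0.05, 9 genes of the set were lower and 0 higher, against 6.91% and 8.33% of all genes. The arrays did not overlap for 9 lower genes (Ttn, Myom1, Tmod1, Xirp2, Actn2, Myot, Mypn, Synpo2l and Mylk3) and 2 higher genes (Myl2 and Tpm2), against 9.53% and 12.2% of all genes. The macrophage marker mean, over 8 genes, was 12.1 to 13.2 in iCM-Ex and 9.47, 10.9 and 13.0 in saline, and its part in these differences was not tested. Gene spans were looked at only in passing, and no values are given here. The part of gene length in the values of long genes such as Ttn, Xirp2 and Myom1 was not tested.

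Between the treated groups 28 of the 38 genes lay lower in iCM-Ex than in iCM, as did 53.9% of all genes, with a median of −0.65 against −0.04 over all genes. The median was −0.36 without iCM-Ex replicate 3 and −0.38 without iCM replicate 3. By limma 0 genes of the set passed the adjusted threshold, where 1.07% of all genes did, and 8 were lower and 0 higher at an unadjusted p of 0.05, against 6.09% and 8.39% of all genes. The arrays did not overlap for 9 lower genes (Ttn, Tcap, Myh6, Mylk3, Myom1, Nexn, Mypn, Xirp2 and Fbxo32) and for 2 higher genes, Ankrd1 and Mb, whose differences were 0.04 and 0.05. Lower and higher genes without overlap made up 10% and 10.2% of all genes. In the same comparison the markers of macrophages were higher in iCM-Ex for 8 of 8 genes, by a median of 2.03, and those of fibroblasts for 11 of 11, by a median of 1.44. Of the 12 cardiomyocyte markers 6 were higher and 6 lower, with a median of 0.13. Endothelial markers were lower for 8 of 10 genes and higher for 2, with a median of −0.60. The part of these cell types was not tested. This comparison shares its iCM-Ex arrays with the one against saline, so the 2 are not independent. Over all 3 groups at once, limma's moderated F test called 0 of the 38 genes, against 3.32% of all genes, and 11 of the 38 had an unadjusted p under 0.05, against 21.8% of all genes.

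**Figure D1:**
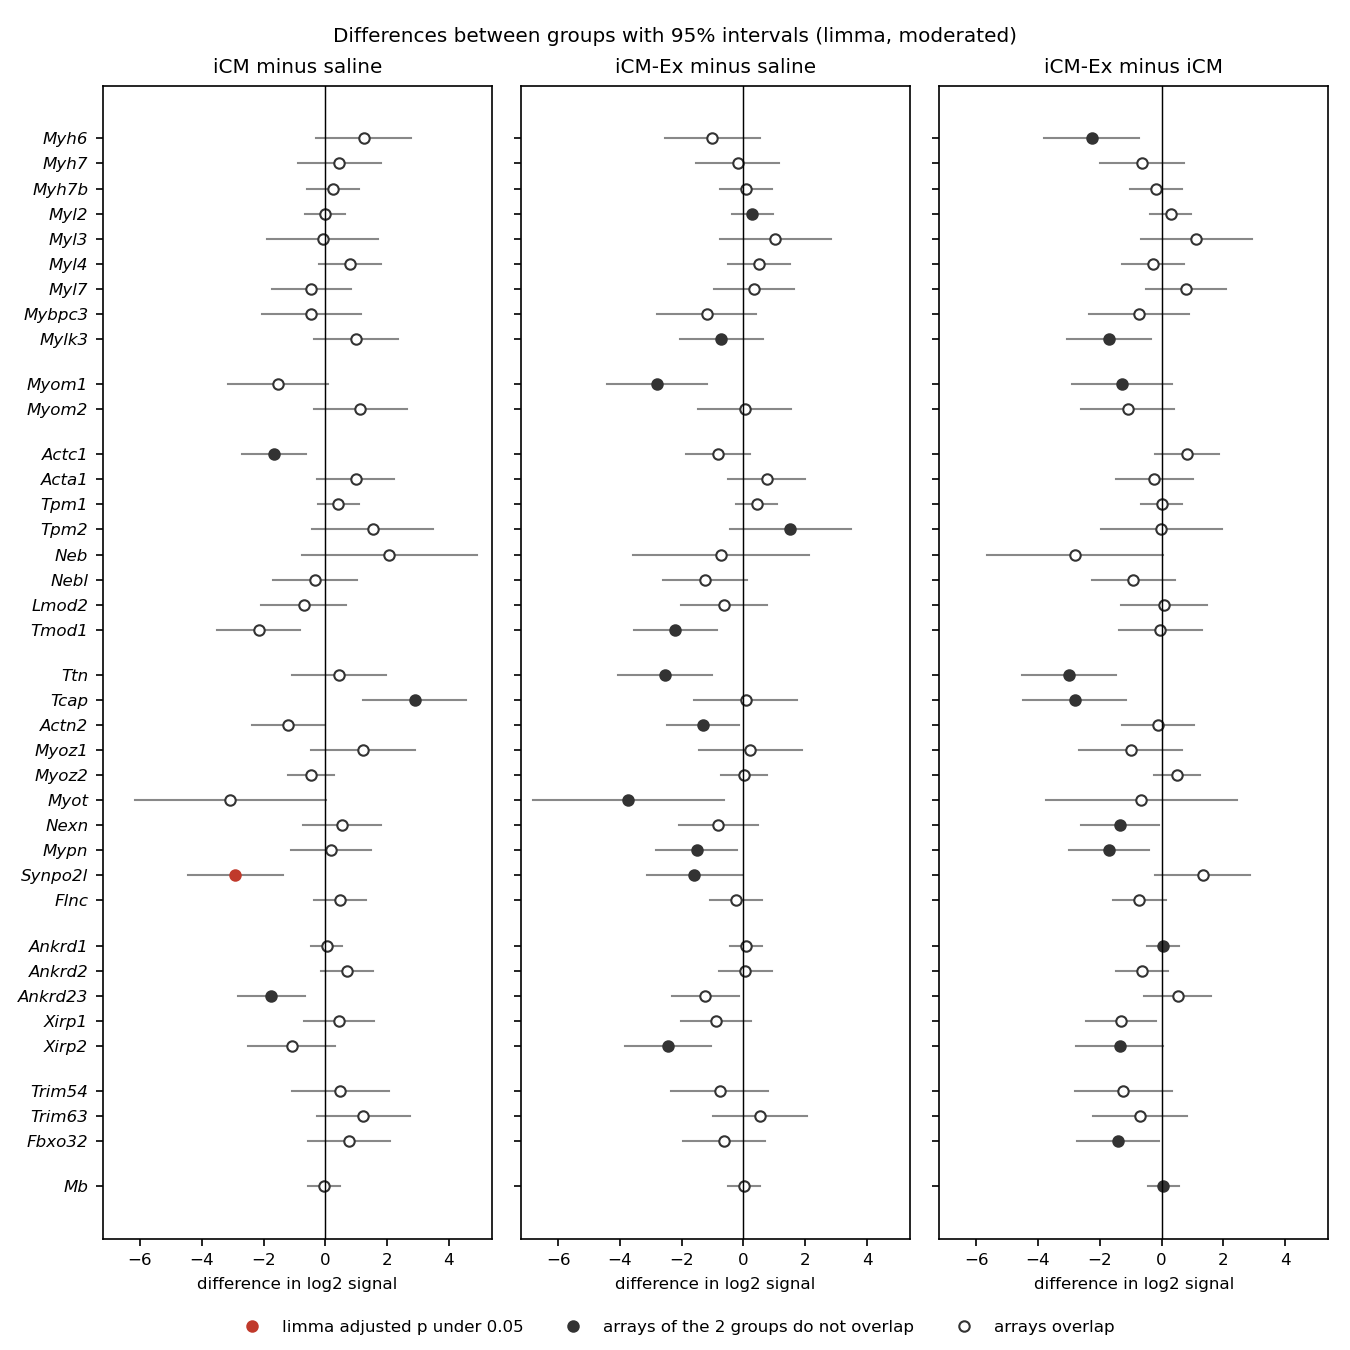
Difference in log2 signal between groups (horizontal axis) for each of the 38 genes, ordered by role, in 3 panels for the 3 comparisons. Points are differences of means over 3 arrays per group, lines are 95% intervals of the limma fit, a red point is past the adjusted threshold (Synpo2l in iCM minus saline), a black point has arrays that do not overlap and an open point has arrays that do.

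Single arrays stood apart in many of these genes. On iCM replicate 3, 16 of the 38 genes had their highest signal, where 12.6% of all genes did, and on iCM-Ex replicate 3, 12 had their lowest, where 10.7% of all genes did. Leaving aside Ankrd1 and Mb, near the highest signal on every array, and Myh7b, Myl7, Myoz1 and Ankrd2, near background, 26 of the remaining 32 genes on iCM replicate 3 lay above their own mean over the 9 arrays, with a median deviation of 1.0. On iCM-Ex replicate 3, 8 of the 32 did, with a median deviation of −0.91. The saline arrays spread as well, with medians of 0.69, 0.28 and −0.43 for replicates 1, 2 and 3. Fibroblast markers, whose mean over 11 genes was 13.3 to 15.2 on the other 8 arrays, were at their lowest on iCM replicate 3. The part of tissue composition in the spread was not tested.

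**Figure D2:**
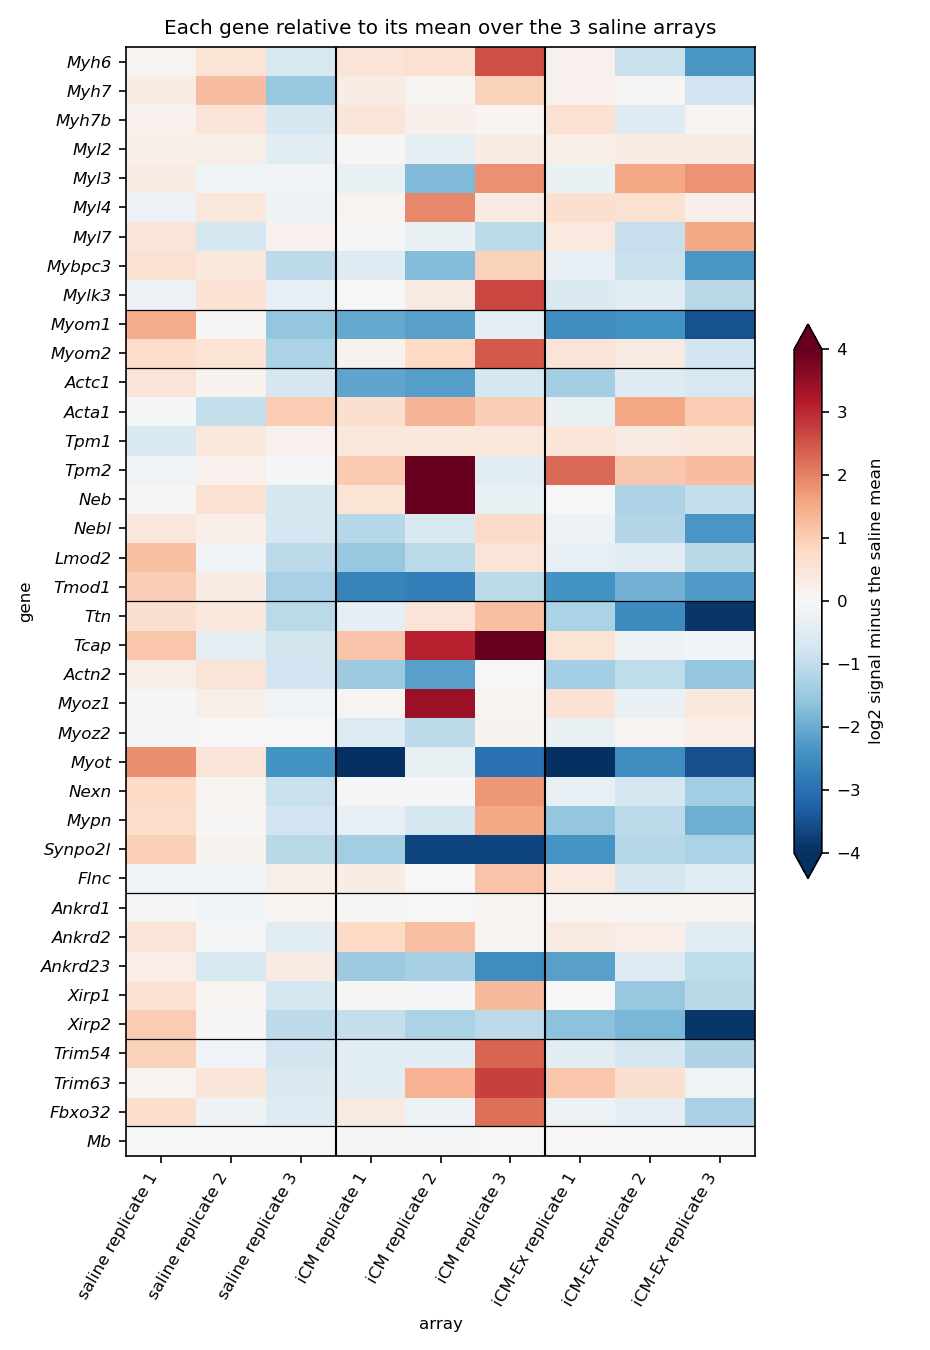
Log2 signal of each gene (rows, ordered by role) on each of the 9 arrays (columns), minus the gene's mean over the 3 saline arrays, as colour from −4 (blue) to 4 (red). The column of iCM replicate 3 is red for many rows and that of iCM-Ex replicate 3 blue. Tmod1, Myom1, Synpo2l, Actc1, Ankrd23, Xirp2 and Myot lie below the saline mean in all 6 treated columns, some of them by little.

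At the ends of the scale a difference may not show in full. Mb, which stores oxygen in heart and slow muscle, lay at 19.88, 19.93 and 19.90 in saline, 19.86, 19.83 and 19.89 in iCM and 19.91, 19.93 and 19.91 in iCM-Ex. Ankrd1, a cardiac ankyrin repeat protein that binds the titin spring and accumulates under load, lay at 19.86, 19.71 and 19.91 in saline, 19.87, 19.84 and 19.89 in iCM and 19.92, 19.91 and 19.91 in iCM-Ex. Both stood within 0.5 of the highest signal on all 9 arrays, as 7 of all genes did. Tpm1, Myl2 and Myoz2 stood that close on 8, 7 and 6 arrays. The median SD over the 9 arrays was 0.94 among the 98 genes with a mean signal of 16 to 18 and 0.17 among the 14 genes at 19.5 to 20, of which 5 belong to the set. A mean so close to the highest signal leaves little room for spread, so the small SD follows in part from the choice of genes by their mean. Where these 5 genes showed no difference, or a small one, that is not evidence that their RNA was level.

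At the other end, Myh7b, Myl7, Myoz1 and Ankrd2 exceeded the array's own median negative control on 3, 3, 1 and 0 of the 9 arrays, so the size of any difference in them is uncertain. Myl7, the atrial regulatory light chain, lay at 5.47, 4.27 and 5.14 in saline, 4.89, 4.71 and 3.93 in iCM and 5.36, 4.02 and 6.51 in iCM-Ex. Ankrd2, the skeletal muscle relative of Ankrd1, lay at 4.39, 3.80 and 3.46 in saline, 4.69, 5.08 and 3.99 in iCM and 4.25, 4.13 and 3.45 in iCM-Ex. All 3 groups overlapped in both genes. Myoz1, a Z-disc protein of fast skeletal fibres, read 7.40 in iCM replicate 2 and 3.66 to 4.52 on the other arrays. Neb, the skeletal thin-filament ruler nebulin, read 11.50 on the same array and 4.32 to 6.16 elsewhere. That array also carried the fast and perinatal skeletal myosin genes Myh4 and Myh8 at 15.8 and 17.5, which were at most 5.03 and 7.01 on the others. Without it the iCM minus saline difference of Neb was 0.15 in place of 2.08, and that of Myoz1 was 0.11 in place of 1.22.

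**Figure D3:**
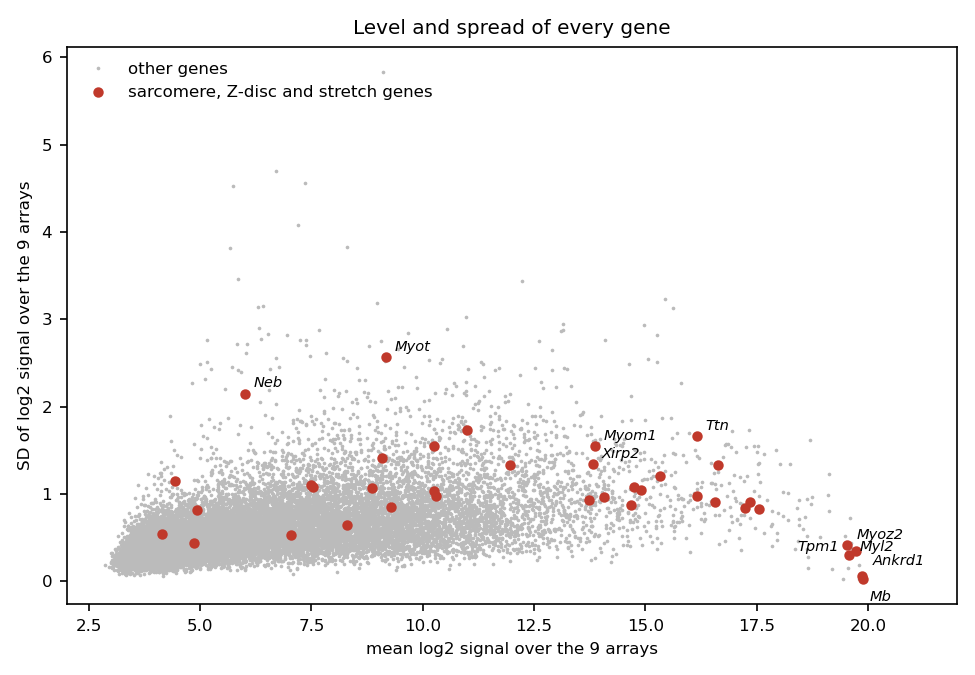
SD of the log2 signal over the 9 arrays (vertical axis) against the mean log2 signal (horizontal axis), with the 38 genes in red and all other genes in grey. Ankrd1, Mb, Tpm1, Myl2 and Myoz2 sit at mean signals of 19.5 to 20, where the spread of all genes narrows, and Myot and Neb have the widest spread in the set.

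Among thick-filament genes, Myh6 and Myh7 encode the fast alpha and the slow beta heavy chain of cardiac myosin. Myh6 had log2 signals of 16.65, 17.11 and 15.90 in saline, 17.09, 17.17 and 19.13 in iCM and 16.73, 15.65 and 14.24 in iCM-Ex. All iCM-Ex arrays lay below all iCM arrays, by a mean of −2.25 ± 0.69 (SE; 95% interval −3.79 to −0.72; limma adjusted p = 0.153), and both groups overlapped saline. The difference was −1.60 without iCM-Ex replicate 3. Myh7 had signals of 17.74, 18.70 and 15.93 in saline, 17.77, 17.57 and 18.39 in iCM and 17.64, 17.50 and 16.69 in iCM-Ex. Its groups overlapped in every comparison, and the intervals of its difference from saline reached from −0.90 to 1.80 in iCM and from −1.53 to 1.16 in iCM-Ex. The balance of the heavy chains within an array, taken as Myh7 minus Myh6 relative to the saline mean, was 0.19, 0.68 and −0.87 in saline. It was −0.22, −0.50 and −1.64 in iCM and 0.00, 0.95 and 1.55 in iCM-Ex. The treated groups thus lay apart from each other in this balance, as did 172 of the 703 pairs that can be formed from the set, and both overlapped the range of the saline arrays.

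The ventricular regulatory light chain gene Myl2 read 19.69, 19.73 and 19.05 in saline, 19.54, 19.09 and 19.81 in iCM and 19.74, 19.78 and 19.81 in iCM-Ex. The iCM-Ex arrays lay above all saline arrays by a margin set at the top of the scale, with a mean difference of 0.29 ± 0.30 (SE; limma adjusted p = 0.707). Mylk3, the cardiac kinase that phosphorylates this light chain, read 7.20, 8.01 and 7.13 in saline, 7.43, 7.81 and 10.11 in iCM and 6.88, 6.99 and 6.32 in iCM-Ex. The iCM-Ex arrays were the 3 lowest of the 9, and iCM replicate 3 stood above the rest. Its iCM-Ex minus iCM difference of −1.72 ± 0.61 (SE; limma adjusted p = 0.216) became −0.89 without that array. Of the remaining thick-filament genes, Mybpc3, the myosin-binding protein that tunes crossbridge cycling, ranged from 12.97 to 16.20 and differed from saline by −0.45 in iCM and −1.19 in iCM-Ex, or −0.62 without iCM-Ex replicate 3. The essential light chain gene Myl3 was above 16.5 on iCM replicate 3 and on iCM-Ex replicates 2 and 3, and at most 15.29 on the other arrays. The atrial light chain gene Myl4 was between 7.64 and 9.78, with its highest value on iCM replicate 2, and Myh7b between 4.08 and 5.36.

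The 2 myomesin genes of the M line, whose proteins crosslink the thick filaments, differed in their values. Myom1 read 16.79, 15.37 and 13.77 in saline, 13.26, 13.12 and 14.95 in iCM and 12.81, 12.88 and 11.84 in iCM-Ex. All iCM-Ex arrays were below all others, at a mean difference from saline of −2.80 ± 0.73 (SE; 6.97-fold lower; 95% interval −4.42 to −1.18; limma adjusted p = 0.118), or −2.46 without iCM-Ex replicate 3. Myom2, the isoform of fast muscle and adult heart, read 15.23, 15.07 and 13.24 in saline, 14.64, 15.32 and 16.98 in iCM and 15.03, 14.87 and 13.75 in iCM-Ex. Its groups overlapped throughout, and its difference from saline was 1.13 in iCM and 0.03 in iCM-Ex. Within arrays, Myom2 minus Myom1 relative to the saline mean was −0.76, 0.50 and 0.27 in saline, 2.18, 3.0 and 2.82 in iCM and 3.01, 2.78 and 2.71 in iCM-Ex. The balance of the myomesins was therefore higher on all 6 treated arrays than on any saline array, and the SD within a treated group was 0.43 (iCM) and 0.16 (iCM-Ex, n = 3 each). Its highest iCM value was on replicate 2, the array with skeletal muscle markers. This pair was singled out after its values were seen, and of the 703 pairs 12.7% had both treated groups to the same side of all saline arrays. The probe sets were not tested for cross-reaction between isoforms.

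The cardiac and the skeletal alpha-actin gene, Actc1 and Acta1, form the thin filament together with tropomyosin. Actc1 read 18.69, 18.32 and 17.50 in saline, 16.07, 15.98 and 17.47 in iCM and 16.83, 17.65 and 17.54 in iCM-Ex. The iCM arrays all lay below the saline arrays, replicate 3 narrowly so, and the mean difference was −1.66 ± 0.47 (SE; 3.16-fold lower; limma adjusted p = 0.0789). Without iCM replicate 3 the difference was −2.14 and passed the threshold, at a limma adjusted p of 0.0359. It was −1.44 without iCM replicate 1 and −1.40 without iCM replicate 2, and −2.14 to −1.40 over all arrays left out in turn. Acta1 read 16.60, 15.69 and 17.66 in saline, 17.29, 17.99 and 17.62 in iCM and 16.34, 18.19 and 17.66 in iCM-Ex. Its groups overlapped, with differences from saline of 0.99 in iCM and 0.75 in iCM-Ex. Acta1 minus Actc1 within arrays, relative to the saline mean, averaged 2.65 ± 0.93 (SD, n = 3) in iCM, while its mean in iCM-Ex was 1.58 ± 0.52 (SD, n = 3). The highest iCM value of this balance, 3.53, was on replicate 2, the array with skeletal muscle markers, where Acta1 was also highest within iCM. The saline arrays themselves spread with an SD of 1.48 and reached 1.68 in replicate 3, so that neither treated group was clear of saline.

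Tmod1, which caps the slow-growing ends of thin filaments, read 14.40, 13.70 and 12.10 in saline, 10.72, 10.65 and 12.36 in iCM and 11.01, 11.47 and 11.12 in iCM-Ex. The iCM-Ex arrays lay below all saline arrays, and iCM did so apart from replicate 3. The mean difference was −2.16 ± 0.60 (SE; 4.45-fold lower; limma adjusted p = 0.0775) in iCM and −2.20 ± 0.60 (SE; 4.6-fold lower; limma adjusted p = 0.130) in iCM-Ex. Without saline replicate 3, its lowest saline array, both differences passed the threshold, at −2.80 (limma adjusted p = 0.0308) and −2.85 (limma adjusted p = 0.0465). The iCM difference also passed it without iCM replicate 3, at −2.71 (limma adjusted p = 0.0449). Over all arrays left out in turn the iCM difference ran from −2.80 to −1.66 and the iCM-Ex difference from −2.85 to −1.70, each smallest in size without saline replicate 1. The iCM difference was −1.89 without iCM replicate 1 and −1.86 without iCM replicate 2. Lmod2, the leiomodin that promotes lengthening of the same filament end, read 13.60 to 16.30 with differences of −0.70 and −0.63. Nebl, the cardiac nebulin relative, read 12.26 to 15.34 with differences of −0.33 and −1.24, the latter −0.70 without iCM-Ex replicate 3. The tropomyosin gene Tpm2 was higher on all iCM-Ex arrays (9.13 to 10.31) than in saline (7.91 to 8.24), and in iCM it ranged from 7.62 to 12.07, with the top value on the array with skeletal muscle markers. The limma adjusted p of its iCM-Ex difference of 1.52 was 0.454. Tpm1 read 18.84 to 19.93.

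**Figure D4:**
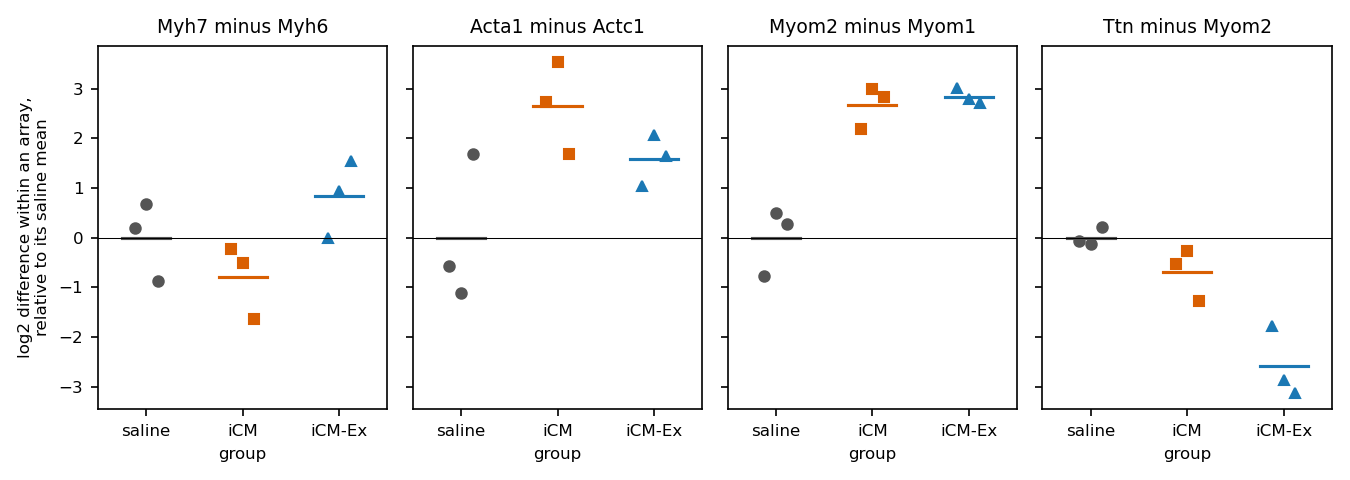
Difference in log2 signal between the 2 genes of a pair within each array, relative to the mean over the saline arrays (vertical axis), by group, with a point per array and a line for the group mean. Myom2 minus Myom1 is above every saline array on all 6 treated arrays, Myh7 minus Myh6 separates the treated groups from each other, Acta1 minus Actc1 overlaps saline, and Ttn minus Myom2, chosen like the myomesin pair after its values were seen, is lowest in iCM-Ex.

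Promoters of these genes are known for sites of serum response factor, called CArG boxes, and of MEF2, which drive muscle genes. Promoter windows of 250 bases before the start (RefSeq, GRCm38.p6) were at hand for 30 of the 38 genes and were searched on both strands. A CArG box was found in 6 of the 30, against 1.62% of 27025 genes of the table. The members concerned were Myl3, Myl7, Myom1, Actc1, Acta1 and Nebl. The sites of the 3 members whose balance with a partner is described above are shown with 25 bases on either side, 5′ to 3′ on the gene's strand, with the CArG box in capitals. They begin 99, 47 and 73 bases before the start.
Myom1, chr17:71019433-71019492, plus strand: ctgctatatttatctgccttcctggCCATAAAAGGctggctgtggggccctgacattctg
Actc1, chr2:114052888-114052947, minus strand: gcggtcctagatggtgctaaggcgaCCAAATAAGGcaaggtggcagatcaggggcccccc
Acta1, chr8:123894814-123894873, minus strand: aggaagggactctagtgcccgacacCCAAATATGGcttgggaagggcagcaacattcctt
In iCM, 5 of the 6 genes with this box lay below their saline mean, as did 16 of the 38 genes and 44.5% of all genes. They were Actc1 at −1.66, Myom1 at −1.53, Nebl at −0.33, Myl3 at −0.08 and Myl7, near background, at −0.45. Acta1 lay above its saline mean at 0.99. In iCM-Ex, Acta1, Myl3 and Myl7 lay above their saline mean and Actc1, Myom1 and Nebl below it. The part of the box in these differences was not tested. By limma 0 of these differences passed the threshold.

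Titin and the Z disc held the widest differences of the set. Ttn, the giant spring of the sarcomere, read 17.50, 17.28 and 15.79 in saline, 16.46, 17.39 and 18.05 in iCM and 15.61, 14.35 and 12.98 in iCM-Ex. The 3 iCM-Ex arrays were the lowest of the 9, and saline and iCM overlapped. Its iCM-Ex minus saline difference was −2.55 ± 0.69 (SE; 5.85-fold lower; 95% interval −4.07 to −1.02; limma adjusted p = 0.127), and it was −1.88 without iCM-Ex replicate 3. The iCM-Ex minus iCM difference was −2.99 ± 0.69 (SE; 7.94-fold lower; limma adjusted p = 0.0718). It passed the threshold after quantile normalisation, at −3.55 (limma adjusted p = 0.0407), and without iCM-Ex replicate 1, at −3.64 (limma adjusted p = 0.0284). Without iCM-Ex replicate 3 it was −2.32 (limma adjusted p = 0.273), the smallest in size with any 1 array left out. Relative to Myom2, with which titin shares the M line, Ttn stood at a mean of −2.58 ± 0.72 in iCM-Ex, against −0.69 ± 0.52 in iCM and a saline SD of 0.19 (SD over 3 arrays, differences from the saline mean). This pair too was singled out after its values were seen, and 36.8% of the 703 pairs had iCM-Ex arrays clear of all saline arrays. With other partners the mean was −1.53 in iCM-Ex and −0.80 in iCM relative to Myh6, and −2.63 and −2.45 relative to Tcap.

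Tcap, the telethonin that ties titin's end into the Z disc, read 11.11, 9.65 and 9.27 in saline, 11.14, 13.10 and 14.47 in iCM and 10.56, 9.80 and 9.91 in iCM-Ex. The iCM arrays lay above all others, replicate 1 narrowly so, with a mean difference from saline of 2.89 ± 0.75 (SE; 7.42-fold higher; 95% interval 1.23 to 4.56; limma adjusted p = 0.0626). Without iCM replicate 1 the difference was 3.77 and passed the threshold (limma adjusted p = 0.0147). Without iCM replicate 2, the array with skeletal muscle markers, it was 2.79 (limma adjusted p = 0.171), and it was 2.11 to 3.77 over all arrays left out in turn. The iCM-Ex minus iCM difference was −2.81 ± 0.75 (SE; limma adjusted p = 0.107). Without iCM replicate 1 it was −3.69 and passed the threshold (limma adjusted p = 0.0265).

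Synpo2l, an actin-associated protein of the Z disc, also called CHAP, was the 1 gene of the set that passed the threshold. It read 12.71, 11.91 and 10.64 in saline, 10.38, 8.08 and 8.08 in iCM and 9.41, 10.63 and 10.48 in iCM-Ex. Both treated groups lay below saline without overlap, iCM-Ex narrowly so. In iCM it fell by 2.91 ± 0.69 (SE), which is 7.52-fold lower, from a mean of 11.76 ± 1.04 to 8.85 ± 1.33 (SD, n = 3; 95% interval of the difference −4.45 to −1.37; limma adjusted p = 0.0485). In iCM-Ex the difference was −1.59 ± 0.69 (SE; limma adjusted p = 0.313). The call in iCM was lost without saline replicate 1 (limma adjusted p = 0.109), saline replicate 2 (0.143), iCM replicate 2 (0.160) or iCM replicate 3 (0.112). It was also lost without iCM-Ex replicate 1, 2 or 3, which enter the shared spread (limma adjusted p = 0.0514, 0.0727 and 0.0776). When the fit included control separation the difference was −2.39 (limma adjusted p = 0.369), and after quantile normalisation it was −2.68 (limma adjusted p = 0.0654). It stayed between −3.68 and −2.43 when any 1 array was left out.

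A MEF2 site was found in 5 of the 30 promoters, those of Mybpc3, Ttn, Myoz2, Synpo2l and Xirp2, against 3.42% of the table. In iCM-Ex, Synpo2l, Ttn and Xirp2 lay below saline without overlap, as did 9 of the 38 genes of the set and 9.53% of all genes. In iCM only Synpo2l of the 5 did, as did 3 of the 38 genes and 10.2% of all genes. Mybpc3 and Myoz2 overlapped saline in both treated groups. The sites of Synpo2l, Ttn and Xirp2 are shown as above, with the MEF2 site in capitals. These 3 genes were chosen by their values, and the part of the site in the differences was not tested. Synpo2l is listed with more than 1 start, of which a pair held a site. The sites begin 109 and 144 bases before those starts of Synpo2l, 166 before that of Ttn and 74 before that of Xirp2.
Synpo2l, chr14:20668429-20668488, minus strand: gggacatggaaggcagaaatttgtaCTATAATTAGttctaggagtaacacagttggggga
Synpo2l, chr14:20664684-20664743, minus strand: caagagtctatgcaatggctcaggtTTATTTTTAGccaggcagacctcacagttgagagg
Ttn, chr2:76982679-76982738, minus strand: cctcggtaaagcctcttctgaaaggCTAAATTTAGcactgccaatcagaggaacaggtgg
Xirp2, chr2:67445903-67445962, plus strand: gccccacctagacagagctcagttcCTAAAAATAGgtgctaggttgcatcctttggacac
The MCAT element CATTCC, bound by TEAD factors, was in 15 of the 30 promoters, against 14.4% of the table. No match of one motif overlapped a match of another in these windows. A match describes letters in a window and says nothing of binding.

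Of the other Z-disc genes, Actn2, whose alpha-actinin crosslinks actin filaments in the Z disc, read 16.66 to 17.93 in saline and 15.85 to 16.38 in iCM-Ex, without overlap, and 15.24 to 17.41 in iCM. Its differences from saline were −1.20 and −1.31 (limma adjusted p = 0.232 and 0.274), the former −0.72 without iCM replicate 2. Mypn, the myopalladin that links titin and alpha-actinin, was lowest on the 3 iCM-Ex arrays (5.99 to 6.88), with 7.15 to 8.67 in saline and 7.24 to 9.49 in iCM. Myot, the myotilin gene, had the widest range of the set, from 5.51 in iCM replicate 1 to 13.30 in saline replicate 1. Its saline arrays alone spanned 9.06 to 13.30, and its differences of −3.07 ± 1.39 and −3.73 ± 1.39 (SE) missed the threshold (limma adjusted p = 0.247 and 0.240). Relative to the saline mean the iCM arrays stood at −5.93, −0.30 and −2.99, and without iCM replicate 1, the array with the most lung markers, the difference in iCM was −1.64. Nexn, the actin-binding nexilin, read 12.42 to 13.48 in iCM-Ex and 13.75 to 15.56 in iCM, without overlap, and 12.93 to 14.60 in saline. The filamin gene Flnc ranged from 6.30 to 8.08 and the calsarcin gene Myoz2 from 18.63 to 19.93.

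Of the stretch-responsive genes, 0 of 5 passed the limma threshold against saline, and Ankrd23, Xirp1 and Xirp2 lay below their saline mean in iCM-Ex. Ankrd23, which like Ankrd1 binds the titin spring, read 17.42, 16.55 and 17.47 in saline, 15.71, 15.83 and 14.65 in iCM and 14.98, 16.64 and 16.12 in iCM-Ex. The iCM arrays all lay below saline, at −1.75 ± 0.49 (SE; 3.36-fold lower; limma adjusted p = 0.0763), and iCM-Ex overlapped saline through replicate 2, at −1.23 ± 0.49 (SE; limma adjusted p = 0.264). Xirp2, an actin-binding Xin repeat protein of the intercalated disc, read 16.01, 15.06 and 13.94 in saline, 14.06, 13.72 and 13.95 in iCM and 13.38, 13.16 and 11.12 in iCM-Ex. The iCM-Ex arrays were the 3 lowest, at −2.45 ± 0.63 from saline (SE; 5.46-fold lower; limma adjusted p = 0.115), or −1.73 without iCM-Ex replicate 3. Its relative Xirp1 ranged from 7.92 to 10.75, with differences of 0.44 and −0.88. In iCM it stood at 0.03, −0.04 and 1.31 relative to the saline mean, so that replicate 3 made the difference. Ankrd1 and Ankrd2, at the top and the bottom of the scale, are described above.

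The ubiquitin ligase genes showed no group separation from saline. Trim63, which encodes MuRF1, a ligase of the M line that marks myosin for degradation, read 9.77, 10.15 and 9.07 in saline, 9.25, 11.05 and 12.38 in iCM and 10.77, 10.31 and 9.52 in iCM-Ex. All groups overlapped, and its difference in iCM of 1.23 ± 0.68 (SE; limma adjusted p = 0.340) was 0.49 without iCM replicate 3 and 2.05 without iCM replicate 1. Fbxo32, the substrate receptor atrogin-1, read 10.96, 10.04 and 9.75 in saline, 10.60, 10.03 and 12.45 in iCM and 10.03, 9.90 and 8.97 in iCM-Ex. The iCM-Ex arrays lay below every iCM array, replicate 1 narrowly so, and overlapped saline, and the difference in iCM of 0.78 ± 0.60 (SE; limma adjusted p = 0.501) was 0.07 without iCM replicate 3. Trim54, or MuRF3, had its highest value, 11.28, on the same array and 7.75 to 9.88 on the others.

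**Figure D5:**
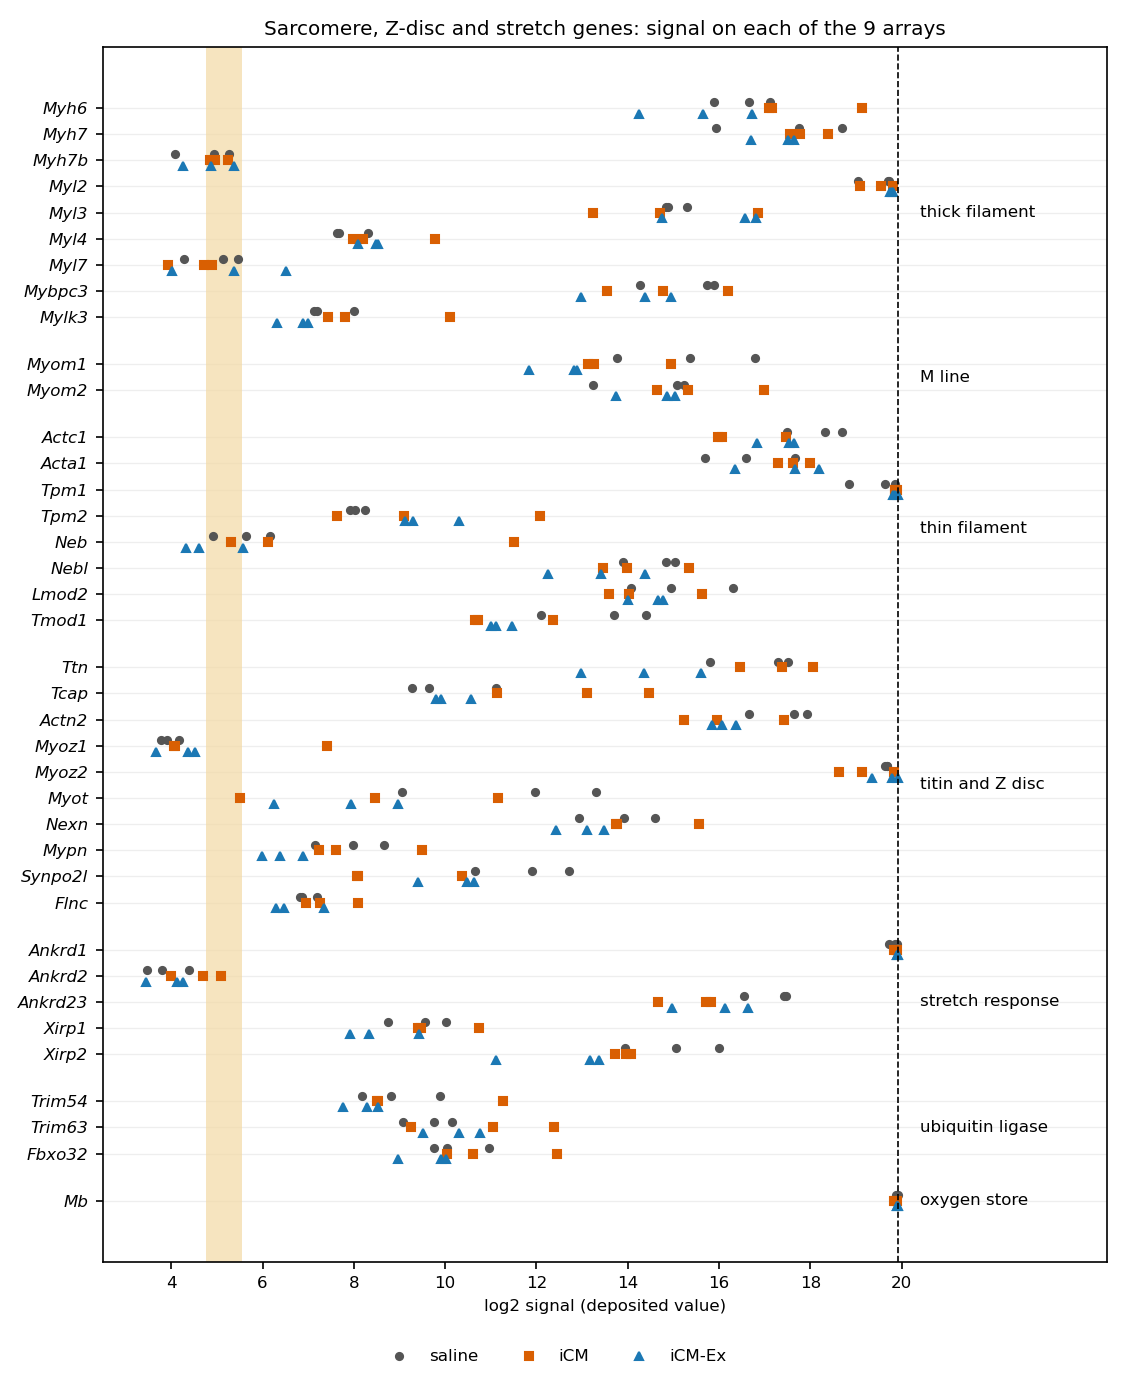
Log2 signal (horizontal axis) of each of the 38 genes, grouped by role, with a point per array (circles saline, squares iCM, triangles iCM-Ex). The shaded band spans the median negative controls of the arrays, 4.76 to 5.56, and the dashed line marks the highest gene signal, 19.93. Levels of different genes come from different probes and are not comparable with each other.

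A further 38 genes of the sarcomere and Z disc were listed for comparison, of which 37 were measured. In iCM against saline 3 of them fell and 0 rose by limma adjusted over all genes, against 2.33% and 1.34% of all genes. Their median was −0.74 against 0.08 over all genes, and 25 of the 37 lay below their saline mean, as did 44.5% of all genes. At an unadjusted limma p of 0.05, 3 were higher and 11 lower, against 10.5% and 9.97% of all genes. Capzb, the beta subunit of the actin-capping protein CapZ, fell by 2.32 ± 0.32 (SE; limma adjusted p = 0.00775). Cfl2, the muscle cofilin that severs actin filaments, fell by 1.64 ± 0.33 (SE; limma adjusted p = 0.0277), and Hspb7, a small heat shock protein of heart, fell by 2.73 ± 0.60 (SE; limma adjusted p = 0.0379). Against saline, iCM-Ex changed 0 of the 37, with 2 higher and 6 lower at an unadjusted limma p of 0.05 and a median of −0.57, against 8.33%, 6.91% and a median of 0.04 over all genes. In iCM-Ex against iCM, Capzb rose by 2.74 ± 0.32 (SE; limma adjusted p = 0.0126) and Pdlim3, an alpha-actinin-associated LIM protein, rose by 2.89 ± 0.45 (SE; limma adjusted p = 0.0271). In that comparison 1.07% of all genes were called. By limma 0 of the 37 fell. At an unadjusted p of 0.05, 9 were higher and 3 lower, against 8.39% and 6.09% of all genes. Of the 37, 19 lay lower in iCM-Ex than in iCM, with a median of −0.06 against −0.04 over all genes.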

How the data were processed

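RNA of 9 peri-infarct samples was measured on 1-colour Clariom S arrays. Deposited by the authors were log2 signals, 1 per probe set and array. Affymetrix Expression Console made them, per the submitters' processing notes. The sources used here give neither its version nor how it corrected background and normalised arrays. Of 28846 rows, 6640 were controls. Of 22206 gene rows, 19572 carried 1 symbol in the platform annotation and 2634 none. The brightest row was kept for 55 genes with several, leaving 19505.

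With no further normalisation or filter, all 9 arrays entered 1 limma fit (version 3.58.1, R 4.3.3) with a mean per group and empirical Bayes moderation (prior and residual degrees of freedom 4.23 and 6). Tests were two-sided, adjusted by the Benjamini-Hochberg method over 19505 genes, at 0.05. The ± beside a difference is the moderated standard error. An exact permutation test of 3 against 3 arrays cannot give a p below 0.1. Labels call the arrays biological replicates, and nothing more ties them to single animals. Precision is limited by having 3 arrays per group. On data simulated for iCM minus saline, with 50 genes changed at each size over 19505 genes, the fit recovered 2%, 60%, 84% and 94% of log2 changes of 1, 2, 3 and 4. The simulated noise was independent between genes and held no shifts of whole arrays, so these shares need not hold for the real arrays.

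The 38 genes and all lists were chosen with earlier results of these data known. Values on every array were given for members past the threshold, for the 2 members of each role with the smallest F test p, and for preset genes (Myh6 and Myh7, Actc1 and Acta1, Myl2 and Myl7, Ankrd1, Ankrd2 and Ankrd23, Trim63 and Fbxo32, Ttn, Mb). Others are given by range.

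Alternatives were quantile normalisation, median centring, a filter on dim genes, all rows but controls, only the groups compared, trended and robust moderation, array weights, a replicate block, control separation as a covariate, and leaving out arrays.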

Additional observations from a re-analysis of the deposited data

How the results depend on the processing

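Counts of genes called by limma moved with the setting. For all genes in iCM minus saline (716) the count was 279 with only the compared groups, 1500 with array weights, 33 with control separation (positive minus negative controls) as a covariate and 6 without the 3 arrays on which lung, skeletal muscle or fat markers were high, and 126 to 803 with 1 array left out. For iCM-Ex minus saline (68) it was 1, 1187, 5 and 0 under the same 4 settings, 17 with trended and robust moderation and 0 to 163 with 1 array left out. For iCM-Ex minus iCM (208) it was 13, 559, 0 and 0, with 327 after median centring, 352 among genes above the median signal and 0 to 401 with 1 array left out. For the F test (647) it was 2108 with weights, 74 with the covariate, 0 without the 3 arrays and 43 to 723 with 1 array left out.

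Among the 38 genes, Synpo2l in iCM was called with median centring, the dim-gene filter, trended moderation and weights. The count was 0 with quantile normalisation (limma adjusted p = 0.0654), all rows but controls (0.0505), only 2 groups (0.0969), the covariate (0.369) or without the 3 arrays (0.162), 2 with the dim-gene filter (adding Tcap), 4 with weights (adding Actc1, Tcap and Tmod1) and 0 to 2 with 1 array left out. In iCM-Ex minus saline 0 became 4 with weights (Myom1, Tmod1, Ttn and Xirp2) and 0 to 2 with 1 array left out. In iCM-Ex minus iCM 0 became 1 with quantile normalisation or the dim-gene filter (Ttn), 2 with weights (Tcap and Ttn) and 0 to 1 with 1 array left out. The F test's 0 became 1, 2 and 6 under these 3 settings and 0 to 2 with 1 array left out. The median change in iCM was −0.063 to 0.43 with 1 array left out, negative without saline replicate 3 (−0.063) or iCM replicate 3 (−0.029). Of 114 differences 67 kept their sign in all 19 alternatives. The cause of these shifts was not tested.

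Same-numbered arrays of different groups were not more alike than others. Their deviations from the group means correlated at −0.26 to 0.07, against −0.16 to 0.25 for arrays of different number. Deviations within a group depend on each other through the group mean, so this check cannot settle whether the numbers pair the arrays. With the replicate block the counts over all genes were 338, 0, 18 and 205 for the 3 comparisons and the F test, and Synpo2l was not called (count 0, limma adjusted p = 0.0754).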
